A study of Homo sapiens with 3 samples.

Results

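The genes described here encode the class I antigen presentation machinery: the heavy chains HLA-B, HLA-C, HLA-E and HLA-F, their light chain B2M, the peptide transporter subunits TAP1 and TAP2, the loading factor TAPBP (tapasin) and the transcriptional regulator NLRC5. They were chosen by name, with earlier results of these data known. All 9 are among the 22464 Ensembl genes of the deposited table. The set does not hold every gene of the pathway. All 9 had a mean of at least 1 FPKM over the 3 libraries (fragments scaled by gene length and by library total), the minimum used for comparisons. NLRC5 passed that minimum narrowly, with a mean of 1.02 FPKM.

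Class I molecules display peptides from the inside of a cell on its surface. A heavy chain folds in the endoplasmic reticulum with beta-2-microglobulin, the TAP transporter brings in peptides cut by the proteasome, and tapasin holds the empty molecule beside the transporter until a peptide is bound. T cells read HLA-B and HLA-C, while HLA-E shows peptides cut from the leaders of other class I chains to natural killer cells. The promoters of these genes respond to interferon and NF-kB, and NLRC5 joins a complex of RFX, CREB and NF-Y proteins on the upstream part of class I promoters.

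The samples were SK-Hep-1 cells, an established human line from a liver adenocarcinoma, that stably carried a lentiviral short hairpin RNA. The shNC line carried the negative control hairpin. LINC01089, a long noncoding RNA, was the target in the sh1089-1 and sh1089-2 lines, by a hairpin of its own in each. Poly(A)-enriched, strand-specific RNA sequencing asked which genes depend on that RNA. Each group is 1 library, so no difference has a replicate check and no p-value is given. Whether a line is a clone or a pool is not given in the sources used here. The level of LINC01089 was not analysed here, so no label was checked against the target.

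Values in threes are given below in the order shNC, sh1089-1, sh1089-2. Depth, worked out from the FPKM steps, was 10698480, 9528312 and 8359832 reads. The labels give liver as the tissue. Of 5 hepatocyte markers in the table used here, 1 (SERPINA1) had at least 1 FPKM, and APOA1 and FGB were listed at 0 in each library. Of 8 endothelial markers none reached 1 FPKM, with a summed level of 0.702 to 1.11 FPKM. Of 8 leukocyte markers, CD14 and CD74 reached 1 FPKM in each library, while LYZ and NKG7 were listed at 0. CD74, the class II invariant chain, had 6.82, 14.7 and 21.3 FPKM, and its part in the results below was not tested.

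RefSeq (GRCh38.p14) gave 8 promoter windows for 7 of the genes, with 2 start sites for TAP1, and 3 are shown because they hold the elements by which class I genes are known to be regulated as a group. Each runs over the 250 bases before the start, on the gene's strand. HLA-B lies at chr6:31357180-31357429 and HLA-C at chr6:31272093-31272342, both on the minus strand, and B2M at chr15:44711267-44711516 on the plus strand. Capitals mark matches, on either strand, to a paired GAAA (GAAA, any 2 bases, GAAA) and GAANTGAAA (interferon response types), to TGACG (the CREB type), to CCAAT (the NF-Y type) and to the NF-kB consensus.
HLA-B: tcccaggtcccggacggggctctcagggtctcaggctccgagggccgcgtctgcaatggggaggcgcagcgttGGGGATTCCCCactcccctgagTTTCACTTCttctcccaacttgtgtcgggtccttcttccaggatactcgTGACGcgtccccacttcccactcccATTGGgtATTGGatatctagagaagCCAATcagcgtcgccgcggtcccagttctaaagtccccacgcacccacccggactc
HLA-C: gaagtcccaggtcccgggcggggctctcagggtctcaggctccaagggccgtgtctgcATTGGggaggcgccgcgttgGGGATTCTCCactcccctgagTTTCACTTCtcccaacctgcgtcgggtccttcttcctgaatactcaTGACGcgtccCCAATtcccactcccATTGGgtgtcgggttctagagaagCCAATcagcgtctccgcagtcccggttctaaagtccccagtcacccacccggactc
B2M: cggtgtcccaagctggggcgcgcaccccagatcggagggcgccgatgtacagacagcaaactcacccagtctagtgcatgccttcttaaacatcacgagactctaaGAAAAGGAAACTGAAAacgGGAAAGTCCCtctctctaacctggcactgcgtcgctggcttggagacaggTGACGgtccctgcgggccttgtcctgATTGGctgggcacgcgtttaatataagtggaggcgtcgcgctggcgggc
The HLA-B and HLA-C windows were 89.0% identical. Leaving the NF-Y types aside, the NF-kB consensus came first in both, followed toward the start by GAANTGAAA and then the CREB type. HLA-B held 3 NF-Y types, all nearer to the start than these, and HLA-C held 4, of which 1 lay beyond the NF-kB match. B2M held a paired GAAA, then the NF-kB consensus, the CREB type and, nearest to the start, 1 NF-Y type. Adjoining matches overlapped in B2M, and the NF-kB match of HLA-B read on both strands.

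Of the remaining windows, 4 are shown as 30 bases around the paired GAAA, in capitals, since the peptide loading genes share it. The window of the second TAP1 start site held none of the motifs and is not shown. They lie at chr6:32853816-32853845 (TAP1), chr6:32838778-32838807 (TAP2) and chr6:33314079-33314108 (TAPBP), all on the minus strand, and at chr6:29723268-29723297 (HLA-F) on the plus strand.
TAP1: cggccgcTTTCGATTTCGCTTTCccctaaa
TAP2: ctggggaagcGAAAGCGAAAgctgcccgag
TAPBP: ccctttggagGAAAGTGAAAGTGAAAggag
HLA-F: ctccccagagTTTCTCTTTCtctcccaacc
A paired GAAA was in 5 of the 8 windows, against 3.02% of 35116 windows of the same length. GAANTGAAA was in 2 (HLA-B and HLA-C), against 1.53%. CCAAT was in 5 against 32.0%, TGACG in 4 against 21.2% and the NF-kB consensus in 5 against 9.96%. The motifs were chosen as elements already known at class I promoters, so counts above these shares support nothing further. Nor are the HLA windows independent: that of HLA-F was 80.4% identical to HLA-B and 78.2% to HLA-C. In TAP1 and TAPBP 2 overlapping paired GAAA matches make up the capitals. A match describes these letters only and shows no binding.

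HLA-B and HLA-C also share most of the leader codons whose peptide HLA-E presents. The first 33 coding bases of their principal GENCODE 29 transcripts are shown with codons 3 to 11 in capitals.
HLA-B: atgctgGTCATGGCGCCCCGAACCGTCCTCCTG
HLA-C: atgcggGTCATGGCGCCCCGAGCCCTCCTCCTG
Counted from the first capital of HLA-B, the 27 bases differed by A16G and G19C. Over the whole transcripts the genes were 91.5% identical. Of the 50-base stretches of the HLA-B transcript, 21.0% also occur in transcripts of other listed genes. The share was 6.79% for HLA-C, 5.13% for HLA-E and 28.4% for HLA-F. It was 1.07% for TAP1, 1.27% for TAP2 and 0% for B2M, TAPBP and NLRC5. How the authors assigned reads from such stretches is not given in the sources used here, so the values of the HLA genes, HLA-F above all, are uncertain. GENCODE 29 also places HLA-B (chromosome 6, 31269491 to 31357188) and HLA-C (31268749 to 31272130) on the same strand. These spans, introns included, have 2640 bases in common.

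HLA-E was the most abundant heavy chain, and the 9 genes spanned levels from about 1 to 154 FPKM. By mean FPKM the order was HLA-E, B2M, HLA-C, HLA-B, TAPBP, TAP1, TAP2, HLA-F and NLRC5. The ranges over the 3 libraries overlapped between HLA-C and HLA-B, between HLA-B and TAPBP, and between TAPBP and TAP1, and not between the other neighbours. In each library HLA-E stood above more than 98% of all listed genes, HLA-F above 59.4% to 63.8% and NLRC5 above 49.2% to 51.6%.

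FPKM depends on the length used. For B2M the length recovered from the values was 6079 bases, the summed exon length of its annotated transcripts in GENCODE 29. The recovered length equalled that sum for the other genes too, except HLA-E (2922 against 2975 bases), HLA-F (4315 against 4342) and TAP2 (6380 against 6390). On the length of the longest principal transcript, a scale added after the data were seen, B2M led, with an RPKM of 308, 250.5 and 280.4. HLA-E followed with 173, 119 and 129 on the same scale, and TAPBP with 101, 79.8 and 100.3. The light chain thus stood above HLA-E on that scale and below it in FPKM. Ratios of 1 gene between libraries are the same on both scales.

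**Figure D1:**
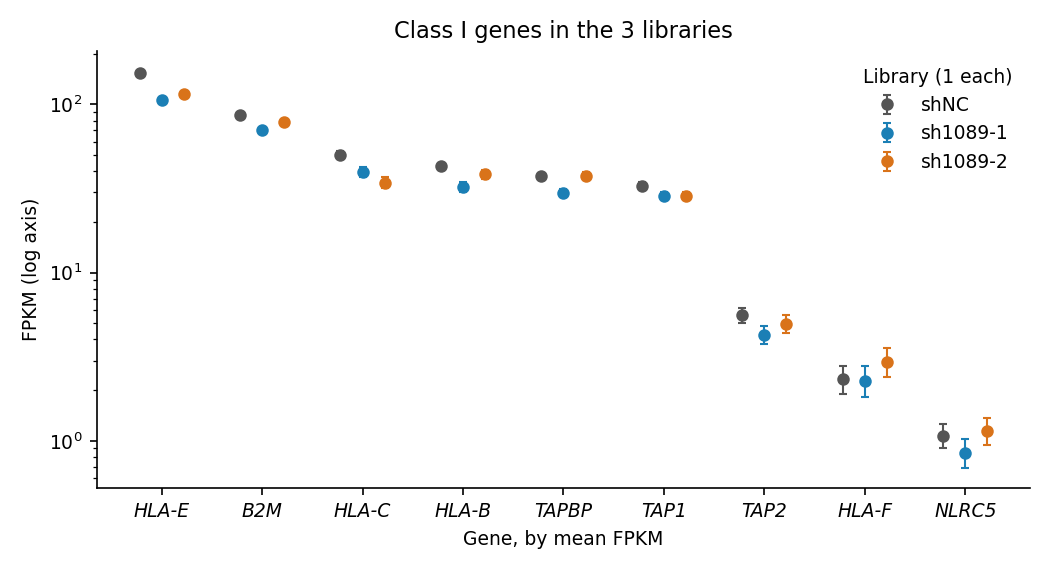
Level of each gene in FPKM on a log axis, ordered by mean, in the 3 libraries (1 point each). Bars are 95% exact Poisson intervals of the reads and cover counting error only. HLA-E had 154 FPKM in shNC, and NLRC5 lay near 1 FPKM in each library.

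The heavy chains HLA-E, HLA-B and HLA-C stood below the control in both hairpin libraries, each by less than 1.5-fold. HLA-E (ENSG00000204592, chromosome 6, 30489467 to 30494205) had 154, 106 and 115 FPKM. It was 1.45-fold lower in sh1089-1 (95% counting interval 1.39 to 1.52) and 1.34-fold lower in sh1089-2 (1.28 to 1.40). These intervals, here and below, are exact binomial intervals of the reads and leave out any variation between cultures.

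HLA-B (ENSG00000234745) had 42.7, 32.3 and 38.4 FPKM. That was 1.32-fold lower in sh1089-1 (1.22 to 1.44) and 1.11-fold lower in sh1089-2 (1.03 to 1.21). HLA-C (ENSG00000204525) had 49.8, 39.5 and 34.3 FPKM, 1.26-fold lower in sh1089-1 (1.16 to 1.37) and 1.45-fold lower in sh1089-2 (1.33 to 1.59). The lowest HLA-B value was thus in sh1089-1 and the lowest HLA-C value in sh1089-2. The FPKM ratio of HLA-B to HLA-C was 0.859 (0.796 to 0.926) in shNC and 0.816 (0.745 to 0.895) in sh1089-1. It was 1.12 (1.02 to 1.24) in sh1089-2, the 1 library in which HLA-B stood above HLA-C in FPKM. That order depends on the length used. On the principal transcript length HLA-B stood above HLA-C in shNC too, with an RPKM of 84.3 against 81.2. These values were 63.6 against 64.5 in sh1089-1 and 75.7 against 55.9 in sh1089-2. Both genes share transcript sequence, and their annotated spans overlap, introns included. The part of shared reads in the ratio of HLA-B to HLA-C was not tested.

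HLA-F (ENSG00000204642, chromosome 6, 29722775 to 29738528), a heavy chain that is mostly held inside the cell, was low throughout. It had 2.32, 2.26 and 2.94 FPKM, on 107, 93 and 106 reads. Its ratio to shNC was 0.976 (0.731 to 1.30) in sh1089-1 and 1.27 (0.96 to 1.67) in sh1089-2. No difference could be detected with so few reads.

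Together HLA-B, HLA-C, HLA-E and HLA-F took 7652 reads in shNC, 4928 in sh1089-1 and 4610 in sh1089-2. These were 0.0715%, 0.0517% and 0.0551% of the library. HLA-E made up 62.9% (61.8 to 64.0) of those reads in shNC, 59.9% (58.5 to 61.3) in sh1089-1 and 60.9% (59.5 to 62.3) in sh1089-2. HLA-E thus held most of these reads in each library, and the summed share was highest in the control.

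B2M (ENSG00000166710, chromosome 15, 44711487 to 44718877) encodes the light chain that pairs with the class I heavy chains. It was lower by a smaller ratio than HLA-E in both hairpin libraries. It had 86.3, 70.2 and 78.7 FPKM, on 5610, 4069 and 3997 reads. It was 1.23-fold lower in sh1089-1 (1.18 to 1.28) and 1.10-fold lower in sh1089-2 (1.05 to 1.14). The FPKM ratio of HLA-E to B2M was 1.79 (1.72 to 1.86) in shNC, 1.51 (1.44 to 1.58) in sh1089-1, and in sh1089-2 it was 1.46 (1.39 to 1.53). The control interval overlapped neither hairpin interval, by counting error alone.

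The peptide loading genes stood below the control in sh1089-1, and in sh1089-2 only TAP1 did so beyond its counting interval. TAP1 (ENSG00000168394, chromosome 6, 32845209 to 32853978), an ATP-driven subunit of the transporter, had 32.8, 28.4 and 28.5 FPKM. It was 1.16-fold lower in sh1089-1 (1.08 to 1.24) and 1.15-fold lower in sh1089-2 (1.07 to 1.24). The annotated span of TAP1, introns included, shares 8770 bases with that of PSMB9 on the other strand. Whether counting used the strand is not given in the sources used here.

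TAP2 (ENSG00000204267, chromosome 6, 32821833 to 32838780), its partner subunit, had 5.58, 4.26 and 4.97 FPKM on 381, 259 and 265 reads. It was 1.31-fold lower in sh1089-1 (1.12 to 1.54). In sh1089-2 it was 1.12-fold lower, with an interval (0.958 to 1.32) that holds 1. The FPKM ratio of TAP1 to TAP2 was 5.88 (5.26 to 6.59), 6.66 (5.82 to 7.64) and 5.73 (5.01 to 6.58), and these intervals overlapped.

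TAPBP (ENSG00000231925, chromosome 6, 33299694 to 33314387) had 37.6, 29.8 and 37.5 FPKM. It was 1.26-fold lower in sh1089-1 (1.18 to 1.35), and its ratio in sh1089-2 was 0.996 (0.933 to 1.06). Between the hairpin libraries it was 1.26-fold higher in sh1089-2 (1.17 to 1.35), a difference of 0.32 in log2(FPKM + 1).

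NLRC5 (ENSG00000140853, chromosome 16, 56989485 to 57083531), the regulator of the class I genes, was the least abundant, with 1.07, 0.847 and 1.14 FPKM on 142, 100 and 118 reads. Its ratio to shNC was 0.791 (0.606 to 1.03) in sh1089-1 and 1.06 (0.826 to 1.37) in sh1089-2. Neither hairpin library could be told from shNC at this depth. The ratio of sh1089-2 to sh1089-1 was 1.34, with a counting interval (1.02 to 1.77) that lay just above 1. With 1 library each, that difference was not tested.

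Across the set, none of the 9 genes passed 1.5-fold in log2(FPKM + 1) in any of the 3 comparisons. Of all 11198 genes past the filter, 5.27% were at least 1.5-fold higher and 5.83% lower in sh1089-1, and 4.89% and 5.63% in sh1089-2. At those shares a set of 9 genes with none called is near the background. The differences in log2(FPKM + 1) ran from -0.53 to -0.02 in sh1089-1, with a median of -0.32, beside -0.03 over all genes. In sh1089-2 they ran from -0.53 to 0.25, with a median of -0.14, beside -0.04 over all genes. Rescaled to TPM (transcripts per total, which sums alike in each library), these medians were -0.08 and 0.01. All 9 genes were below shNC in sh1089-1, 7 with a counting interval below 1, and 53.6% of all genes lay below it. In sh1089-2, 7 of 9 were below shNC, 5 with such an interval, against 55.1% of all genes. Both comparisons use the same shNC library, so a high value of these genes in that library would enter each of them.

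Between the hairpin libraries, 8 of 9 genes were higher in sh1089-2, HLA-C being the exception. The median difference was 0.18, beside -0.01 over all genes. Counting intervals lay above 1 for 5 genes (HLA-B, HLA-E, B2M, TAPBP and NLRC5) and below 1 for HLA-C. In that comparison 4.78% of all genes passed 1.5-fold in either direction.

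**Figure D2:**
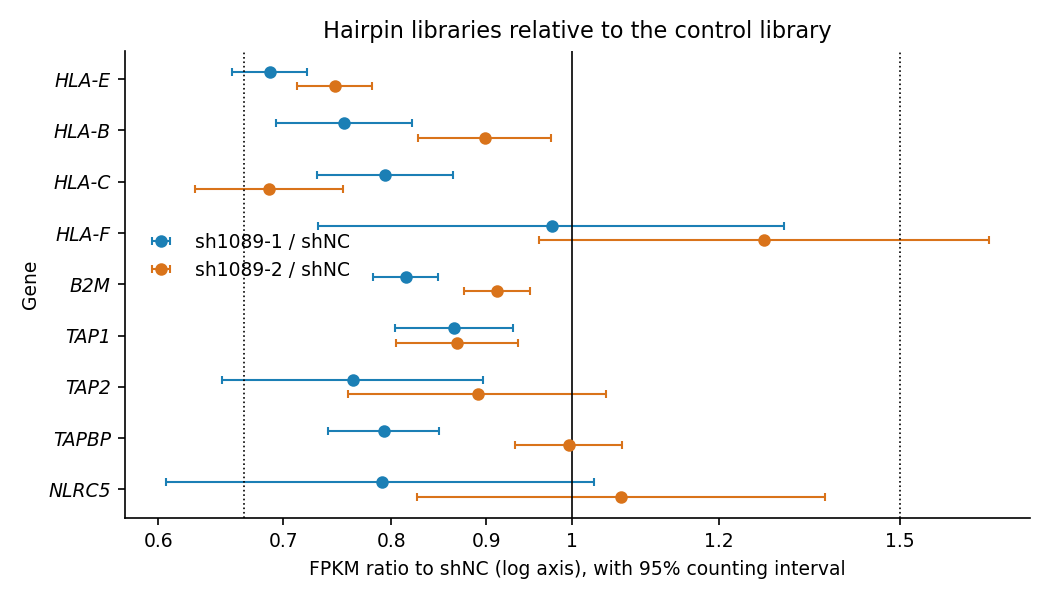
FPKM of each hairpin library divided by FPKM of shNC, on a log axis, with 95% exact binomial counting intervals. The solid line marks a ratio of 1 and dotted lines mark 1.5-fold. All 9 sh1089-1 points lie below 1, and HLA-F and NLRC5 lie above 1 in sh1089-2.

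Genes around the pathway were taken from lists. Of all genes past the filter, 11.1% in sh1089-1 and 10.5% in sh1089-2 passed 1.5-fold in either direction. In a short list 1 called gene is near that share. Of 8 genes that fold class I in the endoplasmic reticulum or trim its peptides, ERAP2, a peptide-trimming aminopeptidase, was the 1 past 1.5-fold in sh1089-1, and none passed in sh1089-2. ERAP2 had 4.91, 2.87 and 3.32 FPKM, 1.71-fold and 1.48-fold lower. CALR, PDIA3 and CANX, the chaperones of the loading complex and of heavy chain folding, had the highest levels. CALR had 378, 449 and 440.0 FPKM, PDIA3 115, 104 and 111, and CANX 118, 98.4 and 88.2. CALR thus stood above shNC and CANX below it in both hairpin libraries, and the list medians were -0.26 and -0.12 in log2(FPKM + 1).

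Of 14 genes of peptide supply, THOP1, a cytosolic peptidase that also destroys class I peptides, was the 1 past 1.5-fold, and it was higher in both hairpin libraries. It had 9.74, 16.3 and 15.4 FPKM. The constitutive proteasome subunits PSMB6, PSMB7 and PSMB5 had the highest levels, with 149, 133 and 106, with 141, 150.4 and 138, and with 103, 129 and 107 FPKM. PSMB8 and PSMB9, the immunoproteasome subunits encoded beside TAP1 and TAP2, had 16.7, 16.3 and 18.2 and 8.99, 8.93 and 8.10 FPKM. The list medians were -0.05 and -0.00.

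Of 15 factors known at class I promoters, none was past 1.5-fold in sh1089-1 and IRF1 was in sh1089-2. IRF1, an interferon-induced activator of these promoters, had 2.80, 4.09 and 4.88 FPKM, 1.46-fold and 1.74-fold higher. RELA, the NF-kB subunit, had 20.4, 19.7 and 19.6 FPKM, RFXANK, a partner of NLRC5 on these promoters, 17.0, 21.5 and 22.5, and USF2 16.2, 18.0 and 16.6. The medians of this list were 0.10 and 0.16, above 0 where those of the class I genes were below it.

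Of 12 genes of interferon signalling 10 passed the filter. STAT2 was 1.62-fold lower in sh1089-1, with 9.14, 5.64 and 8.84 FPKM in the 3 libraries. IFNGR1, a subunit of the interferon-gamma receptor, had 6.47, 4.16 and 2.59 FPKM and passed 1.5-fold in log2(FPKM + 1) in sh1089-2, 2.50-fold lower by plain ratio. JAK1, a kinase of the interferon receptors, had 31.0, 21.2 and 26.0 FPKM, and SOCS3, a feedback inhibitor, had 23.7, 20.1 and 23.1. The list medians were -0.25 and -0.04. Of 10 class I-like genes past the filter none passed 1.5-fold, with medians of -0.17 and -0.02. MICB, a stress ligand read by natural killer cells, had 26.2, 25.8 and 31.2 FPKM, MICA 20.4, 21.1 and 20.3, and PROCR, the endothelial protein C receptor, 96.2, 82.9 and 92.3.

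Interferon-induced genes outside the class I pathway had higher values instead. Of 20 listed, 13 passed the filter. Of these, 10 were at least 1.5-fold higher in sh1089-1 and 11 in sh1089-2, beside 5.27% and 4.89% of all genes. IRF7 was lower in both. RSAD2, OASL, ISG15, IFI6, OAS3, RIGI and the genes IFIT1 to IFIT3 were at least 1.5-fold higher in both, IFI44 in sh1089-1, and OAS1 and OAS2 in sh1089-2. The list medians were 0.80 and 0.95, beside -0.32 and -0.14 for the class I genes. RSAD2 (0.752, 3.38 and 4.84 FPKM) passed the filter only through its hairpin values. Listed genes under the filter enter neither the counts nor the medians. That list had been seen to be higher in these data before it was drawn up, so its count supports nothing further, and the difference between the lists was not tested.

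**Figure D3:**
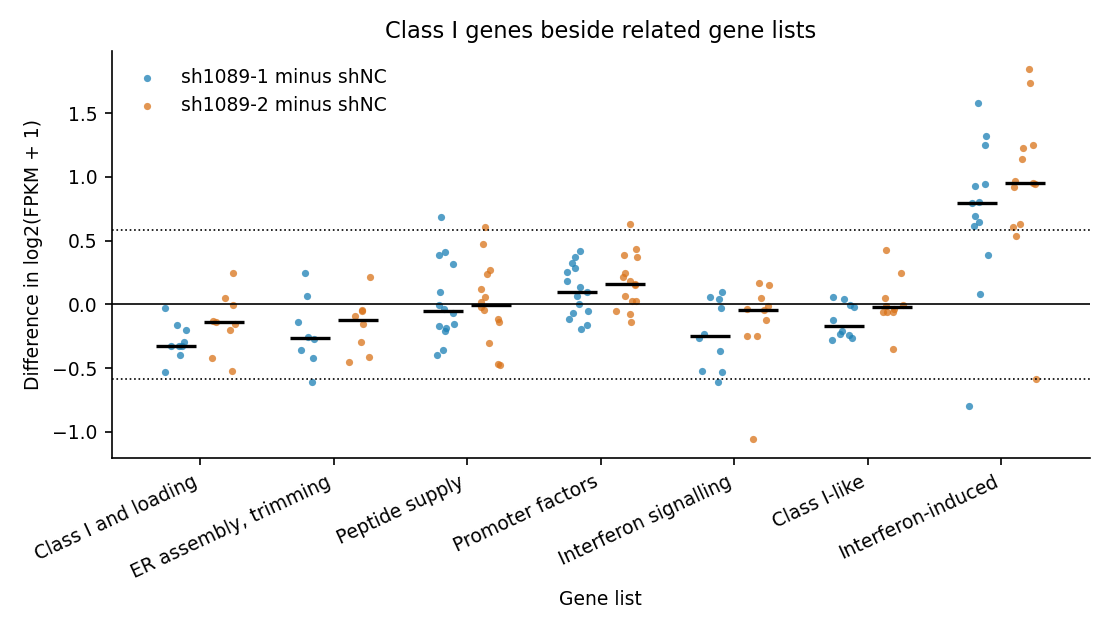
Difference from shNC in log2(FPKM + 1) for genes past the filter in 7 lists, 1 point per gene and hairpin library. Black bars are medians, and dotted lines mark 1.5-fold. The class I and loading genes lie between -0.53 and 0.25, and the medians of the interferon-induced list are 0.80 and 0.95.

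Apart from B2M and NLRC5, the genes lie in the major histocompatibility region of chromosome 6, and 7 of them span it from HLA-F to TAPBP (29722775 to 33314387). The other 76 protein-coding genes past the filter in that span had medians of -0.03 in sh1089-1 and -0.08 in sh1089-2, near those over all genes. Of them, 6 were at least 1.5-fold higher and 6 lower in sh1089-1, and 5 and 6 in sh1089-2. In either direction that was 15.8% and 14.5% of these neighbours, beside 11.1% and 10.5% of all genes past the filter. The higher genes included the class II genes HLA-DRA (5.79, 14.8 and 27.2 FPKM), HLA-DRB1 (1.06, 2.56 and 4.28) and HLA-DPA1 (0.813, 2.01 and 3.58). HLA-DPA1 passed the filter only through its hairpin values. TCF19 (11.5, 29.1 and 26.1 FPKM), NRM (9.55, 15.5 and 15.4) and TRIM26 (13.5, 22.8 and 17.8) were the other higher ones, TRIM26 in sh1089-1 alone. The lower ones were IER3, NEU1, GPSM3, RGL2, DDAH2, HSPA1A, HSPA1B and CSNK2B, in 1 or both libraries. The span thus held class II genes with higher values and class I genes with lower ones.

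**Figure D4:**
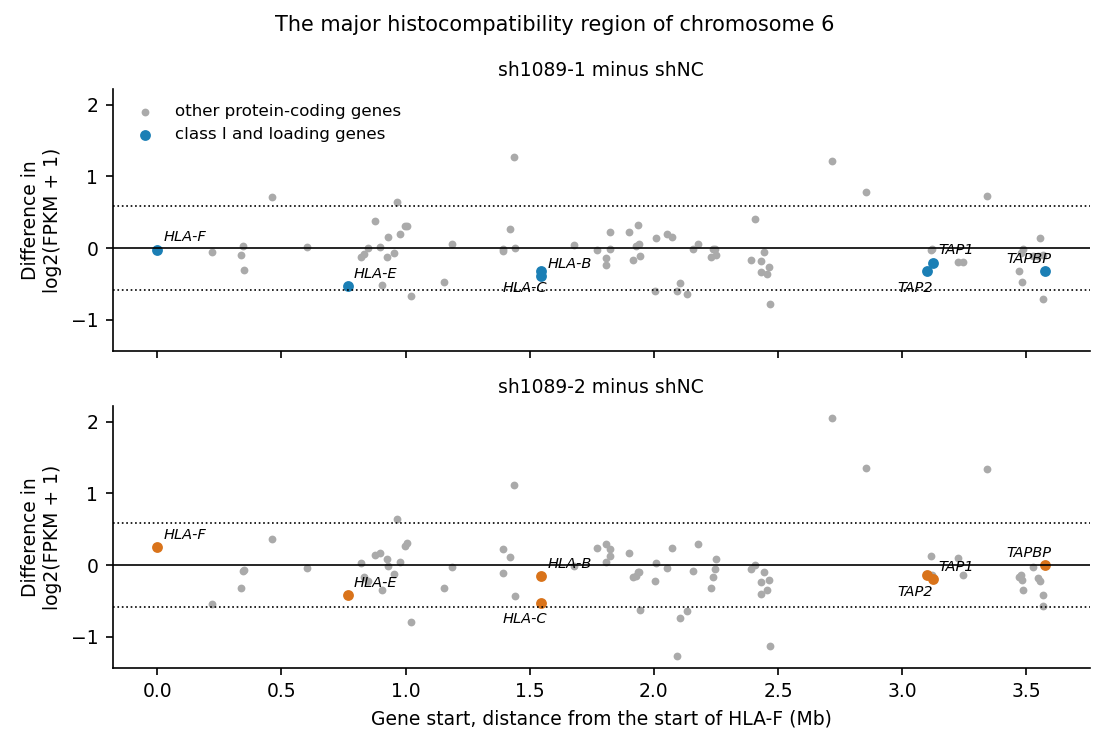
Difference from shNC in log2(FPKM + 1) along chromosome 6, by distance of each gene's lower annotated coordinate from that of HLA-F in Mb. Coloured points are the class I and loading genes and grey points the other 76 protein-coding genes. HLA-B and HLA-C fall together because the annotated span of HLA-B reaches into HLA-C.

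The protein-coding genes nearest to the median pair of differences (-0.32 and -0.14) were USP4, GSTM3, ARHGAP35, ELMO2 and CLK2, at Euclidean distances of 0.01. Likeness over 3 libraries is a weak measure: 185 of 6111 genes with at least 5 FPKM lay within 0.1 of that pair, as did 3 of the 9 class I genes.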

How the data were processed

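Values are FPKM, computed and deposited by the authors for 3 libraries. StringTie, FastQC and build GRCh38 are named in the submitters' processing notes. For versions, aligner, annotation release and strand setting: not given in the sources used here. Symbols were matched for 22375 of 22464 identifiers, and 22444 are in GENCODE 29 (GRCh38), which gave coordinates. FPKM was turned into reads by finding, per gene, a whole length that made all 3 values whole within 0.001 reads, found for 99.9% of 19219 genes above 0, with library totals solved from the same steps. Nearest lengths to GENCODE were taken. Recovered reads gave exact 95% intervals, for counting error only, and no count test. A call is a difference of at least 1.5-fold in log2(FPKM + 1), a pseudocount of 1 that understates low genes, over the genes whose mean reached 1 FPKM. No test was possible with 1 library per group. Scripts (Python 3.11.15, SciPy 1.17.1) were tested on simulated data.

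The genes, the related lists, the motifs and the naming rule were chosen with earlier results of these data known. Named were all 9 genes and, from each list, those past 1.5-fold in either hairpin library, the 3 with the highest mean and any singled out for their place, of which 1 is not reported here. Alternatives were other pseudocounts, filters and scalings.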

Additional observations from a re-analysis of the deposited data

Results flagged for a closer look

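HLA-F and NLRC5 were the genes of the set whose differences from shNC had opposite signs in the hairpin libraries, in log2(FPKM + 1). HLA-F differed by -0.024 in sh1089-1 and by 0.25 in sh1089-2. NLRC5 differed by -0.17 in sh1089-1 and by 0.047 in sh1089-2. Each group is 1 library, so the difference between the hairpins was not tested, and both genes rest on at most 142 reads in a library.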

How the results depend on the processing

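No paired analysis was possible because each group is 1 library, and for the same reason no library could be left out. Under 7 alternatives (pseudocount 0.1, plain ratios, no filter, a mean of at least 5 FPKM, TPM, a median log2 ratio of 0, and, chosen after seeing the data, protein-coding genes with at least 100 reads) none of the 9 genes passed 1.5-fold in any comparison. At 5 FPKM only 6 of them were left. The median of the 9 genes in sh1089-2 came to -0.08 under TPM, where that over all genes was 0.01. Of 120 values of single genes, 118 stayed within the counting interval of the main value. The exceptions came with TPM in sh1089-2, where B2M came to -0.06 and HLA-E to -0.35. TAPBP in sh1089-2 changed sign under TPM and the median scaling, with values from -0.01 to 0.07 over all settings, and the other genes kept their sign. Median scaling shifted the libraries by 0.03 and -0.01. Depth limits HLA-F, NLRC5 and TAP2 most.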
